A study of Homo sapiens with 16 samples.

Results

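H3K27ac, the acetylation of lysine 27 on histone H3, was compared between 2 libraries of H69 cells given recombinant human TGF-beta at 10 ng/ml for 16 h and 2 libraries of H69 cells given vehicle. These are 4 of the 16 samples of the series, taken by their labels as the H3K27ac peak files. The other samples are 4 libraries each of H3K9ac and SMAD3 and 4 inputs, and the inputs were not used here. H69 cells derive from human cholangiocytes, the lining epithelium of bile ducts, and were transformed with a virus, so all 4 libraries came from 1 transformed line. The labels do not say that replicates 1 and 2 came from separate cultures, so the p-values measure only the spread between these libraries, which may be technical.

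H3K27ac is laid down by the acetyltransferases p300 and CBP and marks active promoters and enhancers, which distinguishes active enhancers from poised ones. TGF-beta binds a receptor kinase pair that phosphorylates SMAD2 and SMAD3, which enter the nucleus with SMAD4, bind DNA beside partner factors and recruit these acetyltransferases. In epithelial cells the ligand is known for inducing extracellular matrix, integrins and actin genes and for loosening cell junctions, and in the bile duct it is a driver of scarring. Cholangiocytes are known to secrete fibrogenic growth factors that act on neighbouring fibroblasts and stellate cells.

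The value measured was length: the number of bases inside H3K27ac peaks, in the span of a gene with 10 kb on each side. Peaks numbered 92714 and 90092 in the TGF-beta libraries, against 82259 and 83429 in the vehicle libraries. They covered 65.1 and 63.8 Mb in the TGF-beta libraries, against 54.7 and 59.1 Mb in the vehicle libraries. The means were 64.4 ± 0.965 Mb with TGF-beta and 56.9 ± 3.11 Mb with vehicle (SD, n = 2 each), and the libraries did not overlap, but an exact permutation test gave p = 0.33, the smallest that 2 against 2 allows. Median peak length was 385 to 397 bp in the 4 libraries. The median of the authors' peak score was 14.3 in both TGF-beta libraries, against 12.2 and 12.8 in the vehicle libraries. The files hold no read counts, so the depth is unknown. TGF-beta replicate 2 was sequenced on lane 8 and the other 3 libraries on lane 7, per the file headers. A longer peak length can come from more cells carrying the mark or from more mark per cell, and these cannot be told apart in bulk chromatin.

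After TGF-beta, 2074 genes had more H3K27ac length and 1596 had less, of 13994 genes with a mean length of at least 500 bp (limma, Benjamini-Hochberg adjusted p under 0.05). That is 14.8% of the genes tested higher and 11.4% lower, 26.2% in all, and every later count is read against these shares. Both TGF-beta libraries lay above both vehicle libraries in 40.7% of the genes tested and below them in 20.9%. Every called gene was of this kind, 2074 of 2074 higher and 1596 of 1596 lower. Separate groups at a called gene therefore add nothing to its call. The length filter takes the mean over both treatments, so a gene with little length in a treatment could pass through the other alone. Neighbouring windows overlap, and the higher genes formed 1602 separate loci and the lower genes 1198. On the scale of log2 of the length plus 500 bp, the change was at least 2-fold in 391 of the higher genes and 126 of the lower genes, and the median absolute log2 change was 0.57 in higher and 0.44 in lower genes. Higher genes were longer than the rest, with a median span of 50.8 kb, against 30.3 kb for lower genes and 27.1 kb for genes that did not pass. Of the higher genes, 74.6% had at least 1 region present with TGF-beta and absent with vehicle nearest to them, against 21.1% of the genes that did not pass. The regions and the calls come from the same peaks, and longer genes take in more regions, so this contrast is no separate support. Each library was centred on its own median, which was 0.0856 log2 higher with TGF-beta. Without centring the split was 2507 higher and 880 lower genes, 74.0% higher in place of 56.5%. Leaving out TGF-beta replicate 1 left 1326 higher and 874 lower genes, and leaving out TGF-beta replicate 2, which leaves lane 7 alone, left 1242 and 738.

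**Figure D1:**
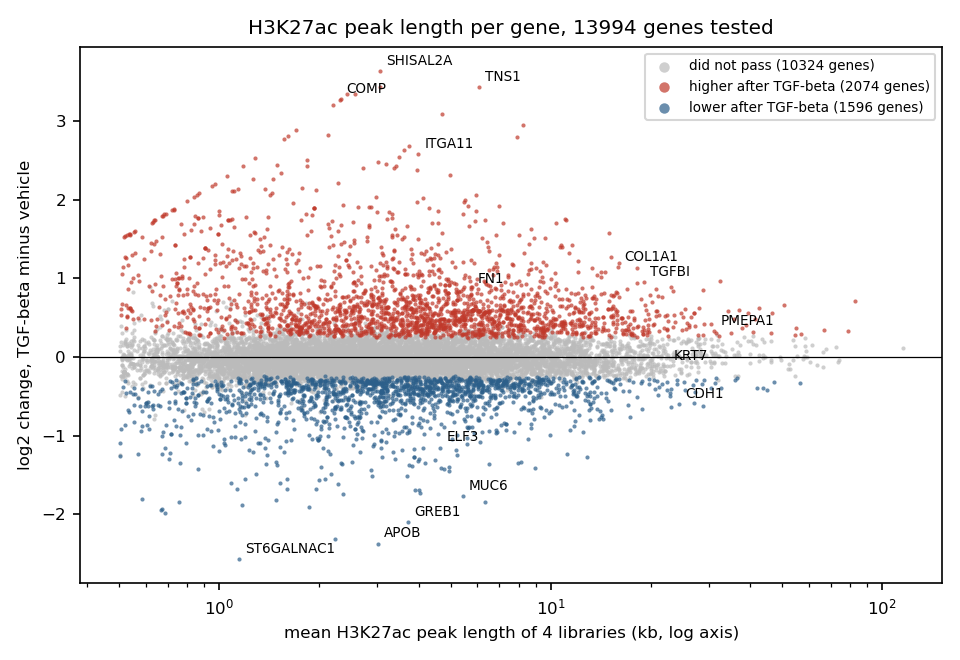
Each point is a gene: the horizontal axis gives its mean H3K27ac length in the 4 libraries (kb, log axis) and the vertical axis its log2 change, TGF-beta minus vehicle. The 2074 higher genes reach larger changes than the 1596 lower genes, and the straight upper edge at low lengths holds genes listed at 0 in both vehicle libraries, whose plotted change is set by the 500 bp added to every length.

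The loci with the largest gains included genes of cell adhesion, matrix and growth factor signalling. TNS1 (chr2:217799791-218033982 in GRCh38) encodes tensin 1, which ties integrins to actin filaments. Its length was 11.2 and 12 kb in the TGF-beta libraries, against 0.707 and 0.424 kb in the vehicle libraries, with 15 regions found after TGF-beta alone. The libraries were far apart, and the log2 change was 3.43 (SE 0.149, adjusted p = 6.66e-05). H3K9ac over TNS1 measured 5.09 and 6.38 kb in the TGF-beta libraries, against 1.89 and 1.14 kb in the vehicle libraries. SMAD3 peaks over it measured 1.27 and 1.61 kb in the TGF-beta libraries, against 0 and 0.163 kb in the vehicle libraries.

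Several loci had H3K27ac in both TGF-beta libraries and were listed at 0 in both vehicle libraries, so no fold can be given. COMP (chr19:18782773-18791305), a matrix protein that binds collagen fibrils, had 4.64 and 4.61 kb in the TGF-beta libraries, against 0 in both vehicle libraries (adjusted p = 1.27e-05). P4HA3, a subunit of the prolyl hydroxylase that matures collagen, had 4.20 and 4.61 kb in the TGF-beta libraries, against 0 in both vehicle libraries (adjusted p = 1.36e-05). Over COMP, SMAD3 peaks measured 4.48 and 4.01 kb in the TGF-beta libraries and were listed at 0 with vehicle. SHISAL2A, BIRC7 (an inhibitor of apoptosis), DMBX1 (a homeobox factor), GABBR2 (a GABA receptor subunit) and XKR7 were the other loci of this kind among the 15 largest gains, with 3.09 to 6.73 kb in the TGF-beta libraries. In all, 36 genes past the threshold were listed at 0 in both vehicle libraries.

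CSF1R (chr5:150053295-150113365), the receptor of macrophage colony-stimulating factor, had 8.63 and 9.05 kb in the TGF-beta libraries, against 0.675 and 0.411 kb in the vehicle libraries (log2 change 3.09, SE 0.143, adjusted p = 7.72e-05). Its locus also held PDGFRB, the neighbouring platelet-derived growth factor receptor. PTHLH, which encodes parathyroid hormone-related protein, had 4.25 and 4.01 kb in the TGF-beta libraries, against 0 and 0.261 kb in the vehicle libraries (log2 change 2.82, SE 0.167, adjusted p = 0.000154). HAPLN3, a link protein that joins hyaluronan to proteoglycans, had 6.27 and 5.82 kb in the TGF-beta libraries, against 0.152 and 0 kb in the vehicle libraries. The TGF-beta libraries were above the vehicle libraries at each of the 3 genes. R3HDML and the neighbouring HNF4A formed 1 locus, and NCBP3 with ITGAE, an integrin subunit, another. The chorionic gonadotropin beta genes around CGB3 and NTF4 gained together as a locus of 10 genes. These gonadotropin genes are near-identical copies, so reads could have been split between them, and the single gene is uncertain.

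The largest losses included genes of epithelial secretion. ST6GALNAC1 (chr17:76617407-76643757), a sialyltransferase that caps mucin sugars, was listed at 0 in both TGF-beta libraries, against 2.17 and 2.43 kb in the vehicle libraries (adjusted p = 1.61e-05). MUC6, a gel-forming mucin, had 2.32 and 2.31 kb in the TGF-beta libraries, against 8.47 and 8.62 kb in the vehicle libraries (log2 change -1.77, SE 0.0730, adjusted p = 5.56e-05). APOB, the protein of lipoprotein particles, had 0.689 and 0.698 kb in the TGF-beta libraries, against 5.26 and 5.41 kb in the vehicle libraries (log2 change -2.37, SE 0.0730). At the 3 genes the TGF-beta libraries lay below the vehicle libraries. GREB1, known as an oestrogen-induced gene, had 1.45 and 0.927 kb in the TGF-beta libraries, against 6.35 and 6.17 kb in the vehicle libraries, and 9 of its regions were lost. BPIFB1 and BPIFA2, secreted proteins of airway and salivary epithelium, lost length at separate loci, and so did ACOX2, an enzyme of bile acid side chain oxidation. The other losses among the 15 largest were ARHGEF38, GABRR2, TMOD1 (a cap of actin filament ends), CALML5, TMC5, SNTB1, SPP2 and ADGRF1. SPP2 passed the 500 bp filter only through the vehicle libraries, and with either of them left out it was not tested. ST6GALNAC1, ARHGEF38, GABRR2, BPIFB1, TMOD1, CALML5, TMC5 and ACOX2 also had a mean under 500 bp in the TGF-beta libraries and passed through the vehicle libraries. Of these, GABRR2, BPIFB1, TMOD1 and TMC5 were tested in only 3 of the fits that left out a library.

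**Figure D2:**
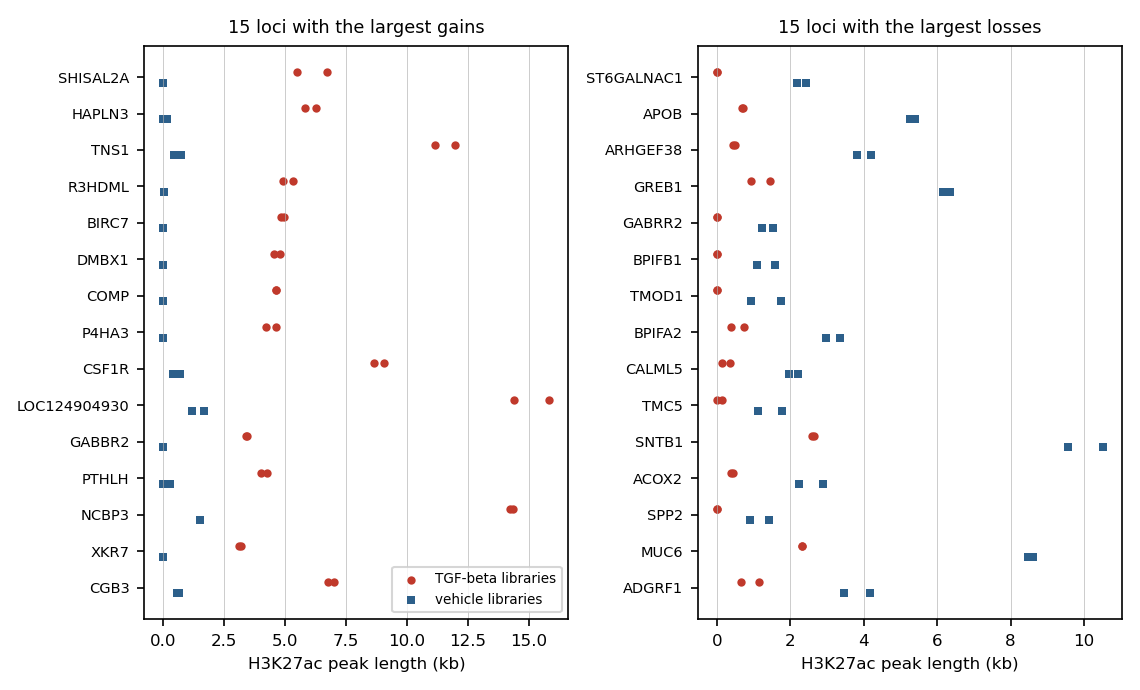
H3K27ac length (kb) in each library at the 15 loci with the largest gains and the 15 with the largest losses, each locus named by its gene with the largest change. Red circles are the 2 TGF-beta libraries, drawn above the blue squares of the 2 vehicle libraries; the groups are separate at every locus, which the choice of loci required.

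Merging the peaks of the 4 libraries gave 104387 regions, of which 12498 (12.0%) were gained, with a peak in each TGF-beta library and none with vehicle, and 4931 (4.72%) were lost, the reverse. A further 43717 were called in all 4 libraries and are named constant. Gained regions were short, with a median of 353 bp, against 332 bp for lost and 1035 bp for constant regions. They were weak within their own library, with a median score at the 35.2 and 34.2 percentile of the 2 TGF-beta libraries. Few lay near the ends of genes: 5.39% of gained, 8.40% of lost and 37.0% of constant regions lay 1 kb or less from a gene's start or end. The share inside a gene was 56.8% of gained, 56.8% of lost and 62.4% of constant regions. Leaving out TGF-beta replicate 1 or 2 loosens what counts as gained and gave 23129 and 24445 gained regions, and leaving out vehicle replicate 1 or 2 gave 14207 and 12025 lost regions.

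More of the gained bases lay inside constant regions than in gained ones. Bases inside peaks of each TGF-beta library and of no vehicle library summed to 8.81 Mb, and 4.26 Mb of them (48.4%) lay inside constant regions, which had widened, while 3.69 Mb (41.9%) lay in gained regions. Bases inside peaks of each vehicle library and of no TGF-beta library summed to 3.56 Mb, with 58.8% inside constant regions and 31.1% in lost regions. Bases shared by all 4 libraries summed to 41.5 Mb.

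Gained regions shared few peaks with the other readouts. A SMAD3 peak in both TGF-beta libraries overlapped 472 gained regions (3.78%), 120 lost regions (2.43%) and 20589 constant regions (47.1%). With vehicle, a SMAD3 peak in both libraries overlapped 0.792% of gained, 1.87% of lost and 41.2% of constant regions. For H3K9ac, a peak in both TGF-beta libraries overlapped 10.4% of gained, 6.37% of lost and 66.8% of constant regions. A peak in both H3K9ac vehicle libraries overlapped 4.85% of gained, 14.6% of lost and 67.4% of constant regions. Constant regions are longer and so are more easily overlapped. These shares are descriptions, with no test.

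**Figure D3:**
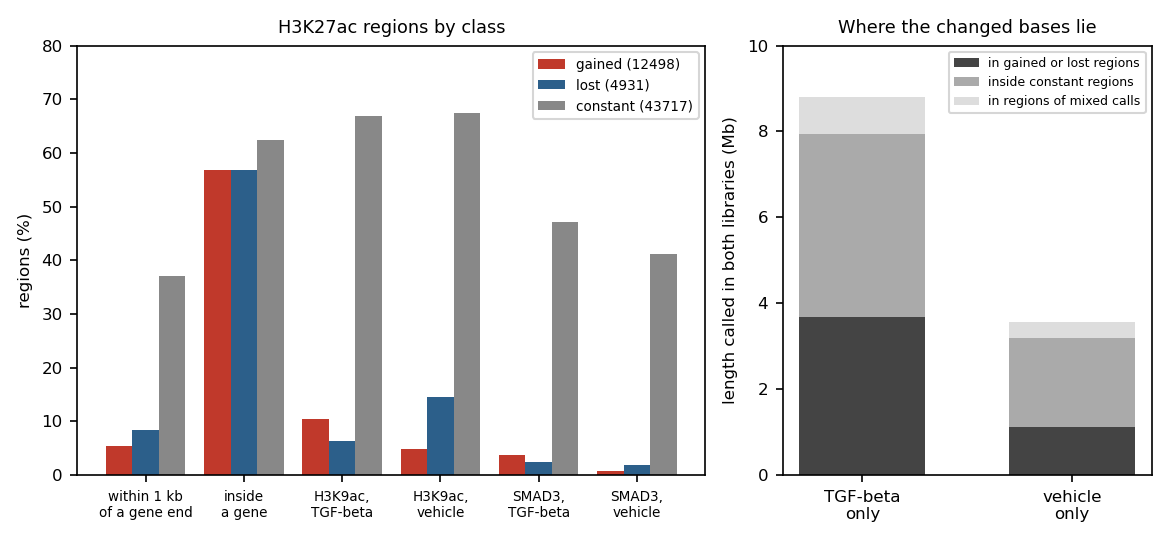
Left, the share of gained, lost and constant H3K27ac regions (%) that lie within 1 kb of a gene end, lie inside a gene, or overlap an H3K9ac or SMAD3 peak found in both libraries of the named treatment. Right, the length (Mb) called in both TGF-beta libraries only (8.81 Mb) or both vehicle libraries only (3.56 Mb), split by the class of region it lies in; constant regions hold the largest piece of both bars.

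Counted by nearest gene within 50 kb, the most gained regions, 31, stood at TNS3, another tensin. Its length was 107 and 103 kb in the TGF-beta libraries, against 55.9 and 64.9 kb in the vehicle libraries (log2 change 0.71, SE 0.0830, adjusted p = 0.00164). UACA, an ankyrin-repeat protein, had 20 gained regions, with 22 and 24.0 kb in the TGF-beta libraries, against 7.06 and 6.83 kb in the vehicle libraries (log2 change 1.57, SE 0.0895). MYLK, the kinase that activates myosin, had 18 gained and 4 lost regions and passed with a log2 change of 0.48. TNS3 did not hold within 10 kb of its start site alone, where the log2 change was -0.02 (adjusted p = 0.895). RAD51B, a gene of recombination repair, had 22 gained regions but its summed length did not pass, with a log2 change of 0.12 (adjusted p = 0.285; 0.0149 with trend and robust options). CTIF, GTF2IRD1, ME3 and NAV1 completed the 8 genes with the most gained regions, with 18 to 20 each.

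The most lost regions stood at DENND2A, with 13, a guanine exchange factor for a RAB protein of vesicle traffic. RIPOR3 had 11 lost regions, and its length was 7.43 and 7.90 kb in the TGF-beta libraries, against 16.9 and 19.3 kb in the vehicle libraries (log2 change -1.27, SE 0.0855, adjusted p = 0.000226). LOC124904102, EPB41L4B, GREB1, ZBTB16, CUEDC1 and ITPK1 followed with 8 to 11 lost regions each. ZBTB16, a zinc finger repressor, had 9 lost and 4 gained regions, and its length of 62.5 and 64.3 kb in the TGF-beta libraries overlapped that of 61.4 and 66.7 kb in the vehicle libraries. ITPK1 did not pass either (adjusted p = 0.572), except with 50 kb on each side (0.0165).

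Few promoters changed. A window from 250 bases before to 50 after the start was on hand for 15812 genes. It gained H3K27ac in 127 (0.803%), lost it in 64 (0.405%) and was covered in all 4 libraries in 8901 (56.3%). Among genes higher over their whole window, 64 of 1658 with a promoter window (3.86%) had a gained promoter, and among lower genes 21 of 1229 (1.71%) had a lost one. Against the direction of the gene, 3 higher genes (0.181%) had a lost promoter and 6 lower genes (0.488%) a gained one. Promoter windows lie inside the gene windows and use the same peaks, so these shares are descriptions and no separate support. Genes with a gained promoter and a higher length included CSF1R, PTHLH, PDGFA, CNN1 (calponin, which binds actin), NRP2 (a receptor of semaphorins and VEGF), WNT9A and F2 (prothrombin). Lost promoters with a lower length included AQP5 (a water channel), AGR2 (a disulfide isomerase that folds mucins), NRG2 (a ligand of ERBB receptors), CAPN9, TJP3 (a tight junction scaffold) and CYP1A1. WNT9A lost its call without TGF-beta replicate 2 (adjusted p = 0.0805).

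The promoters of the 3 higher genes with the largest change and a gained promoter are printed as windows that a peak came to overlap. Those of the 3 lower genes with the largest change and a lost promoter are printed as windows that lost such overlap. An overlap of 1 bp was enough, and how much of each window the peaks cover is not given. Sequences are RefSeq's, build GRCh38.p14, read 5′ to 3′ on the gene's strand. Capitals mark CAGAC or GTCTG, the SMAD box on either strand, and TGANTCA, the AP-1 motif, which reads alike on both strands. HAPLN3 (chr15:88895495-88895794, minus strand) has 3 SMAD boxes, R3HDML (chr20:44336793-44337092, plus strand) 4, and CSF1R (chr5:150113316-150113615, minus strand) 1 beside 1 AP-1 motif. BPIFB1 (chr20:33282964-33283263, plus strand) has 2 SMAD boxes, and neither motif was found in the windows of AQP5 (chr12:49961622-49961921, plus strand) and NRG2 (chr5:140043250-140043549, minus strand).
HAPLN3: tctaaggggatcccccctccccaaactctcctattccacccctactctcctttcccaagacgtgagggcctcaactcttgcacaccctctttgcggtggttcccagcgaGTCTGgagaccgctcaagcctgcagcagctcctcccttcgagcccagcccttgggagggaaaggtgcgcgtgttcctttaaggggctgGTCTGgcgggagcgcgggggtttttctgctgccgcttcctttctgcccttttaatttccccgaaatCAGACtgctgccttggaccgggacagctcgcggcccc
R3HDML: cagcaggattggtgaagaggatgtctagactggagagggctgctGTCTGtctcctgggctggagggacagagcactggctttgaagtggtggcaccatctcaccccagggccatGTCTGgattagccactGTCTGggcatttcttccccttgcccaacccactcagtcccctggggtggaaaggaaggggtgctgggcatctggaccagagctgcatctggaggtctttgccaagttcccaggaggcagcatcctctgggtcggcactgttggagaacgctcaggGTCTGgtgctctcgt
CSF1R: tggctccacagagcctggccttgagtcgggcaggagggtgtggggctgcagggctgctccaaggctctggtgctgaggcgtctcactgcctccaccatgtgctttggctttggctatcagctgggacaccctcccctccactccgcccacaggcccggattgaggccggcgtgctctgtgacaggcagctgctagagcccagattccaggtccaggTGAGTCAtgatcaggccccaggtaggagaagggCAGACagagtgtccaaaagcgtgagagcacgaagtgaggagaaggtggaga
BPIFB1: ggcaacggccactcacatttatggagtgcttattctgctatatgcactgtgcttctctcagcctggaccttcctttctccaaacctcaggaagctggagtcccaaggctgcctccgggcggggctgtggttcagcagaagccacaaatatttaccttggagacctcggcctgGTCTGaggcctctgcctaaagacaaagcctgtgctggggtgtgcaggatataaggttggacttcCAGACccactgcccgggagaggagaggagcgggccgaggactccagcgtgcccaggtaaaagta
AQP5: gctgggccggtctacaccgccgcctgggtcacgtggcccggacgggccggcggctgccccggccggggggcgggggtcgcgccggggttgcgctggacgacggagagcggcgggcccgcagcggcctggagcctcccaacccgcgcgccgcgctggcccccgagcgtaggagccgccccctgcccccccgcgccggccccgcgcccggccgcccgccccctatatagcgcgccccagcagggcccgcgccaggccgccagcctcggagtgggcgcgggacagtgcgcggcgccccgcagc
NRG2: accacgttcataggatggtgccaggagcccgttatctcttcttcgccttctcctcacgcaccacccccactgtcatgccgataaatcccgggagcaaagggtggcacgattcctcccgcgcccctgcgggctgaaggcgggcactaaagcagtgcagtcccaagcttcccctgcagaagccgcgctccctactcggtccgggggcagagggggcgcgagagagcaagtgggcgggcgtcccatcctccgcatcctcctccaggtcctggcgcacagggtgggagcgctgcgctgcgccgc

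The SMAD box is common by its shortness. It stood in 44.1% of all 15812 promoter windows, in 49.6% of the 127 gained and in 32 of the 64 lost ones. The AP-1 motif stood in 5.76% of all windows, in 7.87% of gained and in 3.13% of lost windows. A match is a description of the letters and not a binding site. BPIFB1 was listed at 0 in both TGF-beta libraries, against 1.1 and 1.58 kb in the vehicle libraries. AQP5 had 1.89 and 1.45 kb in the TGF-beta libraries, against 5.57 and 6.66 kb in the vehicle libraries (log2 change -1.70, SE 0.113, adjusted p = 0.00022). NRG2 had 0.515 and 0.578 kb in the TGF-beta libraries, against 2.58 and 2.76 kb in the vehicle libraries. The groups were separate at each of these genes. H3K9ac was present in all 4 of its libraries at the promoters of HAPLN3, AQP5 and NRG2, was gained at CSF1R, and was absent at R3HDML and BPIFB1.

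Target genes of SMAD signalling were acetylated over more length: 13 of 23 tested rose and none fell, with a median log2 change of 0.33, against 14.8% and 11.4% and a median of -0.03 over all genes tested. This list and those below were chosen with earlier results of these data known, so their counts are descriptions and not tests of the lists. TGFBI, a matrix protein that binds integrins, had 26.4 and 25.2 kb in the TGF-beta libraries, against 11.7 and 13.0 kb in the vehicle libraries (log2 change 0.95, SE 0.0756, adjusted p = 0.000383). VASN, a membrane protein that traps TGF-beta, had 15.1 and 14.5 kb in the TGF-beta libraries, against 7.51 and 7.37 kb in the vehicle libraries (log2 change 0.86). ANGPTL4, a secreted inhibitor of lipoprotein lipase, rose by 0.64. The TGF-beta libraries of TGFBI and VASN lay well above the vehicle libraries.

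The feedback inhibitors PMEPA1 and SMAD7 rose by less. PMEPA1, which sequesters SMAD proteins, had 35.8 and 35.4 kb in the TGF-beta libraries, against 26.3 and 26.8 kb in the vehicle libraries (log2 change 0.33, SE 0.0726, adjusted p = 0.0186). SMAD7, which blocks the receptor, had 25.3 and 23.2 kb in the TGF-beta libraries, against 18.2 and 17.9 kb in the vehicle libraries (log2 change 0.33, SE 0.0801, adjusted p = 0.027). The groups did not overlap at either gene, as at every gene called. Both calls were lost without TGF-beta replicate 1 (adjusted p = 0.0875 for PMEPA1 and 0.149 for SMAD7), without TGF-beta replicate 2 (0.105 and 0.0788) and without vehicle replicate 2 (0.0639 and 0.0965).

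Of the ligands, receptors and SMADs themselves, 3 of 16 tested rose and 1 fell, and without centring 5 rose and 1 fell. ENG (endoglin, a co-receptor) had 6.28 and 5.92 kb in the TGF-beta libraries, against 2.32 and 2.70 kb in the vehicle libraries (log2 change 1.05), which was lost with 50 kb on each side (0.02, adjusted p = 0.797). TGFBR1, the type I receptor kinase, had 3.24 and 3.33 kb in the TGF-beta libraries, against 1.91 and 1.80 kb in the vehicle libraries (log2 change 0.60, adjusted p = 0.00297). TGFBR3, the co-receptor betaglycan, had 8.23 and 8.5 kb in the TGF-beta libraries, against 12 and 12.4 kb in the vehicle libraries (log2 change -0.60, adjusted p = 0.00199). So the type I receptor and betaglycan changed in opposite directions. Of 11 genes that store and release latent TGF-beta, 4 rose and 1 fell. LTBP4, which anchors the latent complex in the matrix, rose with a log2 change of 0.85, and its relative LTBP1 with 0.78, which became -0.03 (adjusted p = 0.84) around the start site alone.

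Collagen genes gained in 9 of 13 tested, with a median log2 change of 0.58. COL1A1, the main chain of type I collagen, had 22.4 and 22.9 kb in the TGF-beta libraries, against 8.79 and 9.95 kb in the vehicle libraries (log2 change 1.15, SE 0.0792, adjusted p = 0.000256), with 12 gained regions. COL1A2, its partner chain, had 2.16 and 2.15 kb in the TGF-beta libraries, against 0.498 and 0.483 kb in the vehicle libraries (log2 change 1.34). COL27A1, a fibrillar collagen of cartilage, had 7.10 and 7.59 kb in the TGF-beta libraries, against 1.45 and 2.13 kb in the vehicle libraries (log2 change 1.71). The 2 treatments were separate at all 3 collagens. COL3A1 was listed at 0 in all 4 libraries. The 1 collagen that fell, COL12A1, had a log2 change of -0.29 (adjusted p = 0.0429) and lost its call upon omission of any single library, with adjusted p from 0.0674 to 0.228.

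Among matrix glycoproteins and proteoglycans, 8 of 17 rose and 4 fell, with a median of 0.38, and without centring 10 rose and 2 fell. FN1, fibronectin, had 7.79 and 7.73 kb in the TGF-beta libraries, against 3.57 and 3.98 kb in the vehicle libraries (log2 change 0.87, SE 0.0747, adjusted p = 0.000516). TNC, tenascin C of healing tissue, had 3.83 and 3.47 kb in the TGF-beta libraries, against 1.06 and 1.43 kb in the vehicle libraries (log2 change 1.17). FBLN5, an elastic fibre protein, went the other way, with 0.179 and 0.146 kb in the TGF-beta libraries, against 1.13 and 0.812 kb in the vehicle libraries (log2 change -1.23, adjusted p = 0.00104). Its promoter window was classed as gained. FBLN5 passed the 500 bp filter only through the vehicle libraries, and with either of them left out it was not tested. In the basement membrane list 3 of 14 rose and 3 fell: those that rose included the type IV collagens COL4A1 and COL4A2, with log2 changes of 0.95 and 0.84. COL4A1 did not pass with 2.5 kb on each side (0.26, adjusted p = 0.0652), and the 2 collagen genes are neighbours. The 3 that fell were HSPG2, LAMA5 and LAMB1, with log2 changes of -0.30 to -0.38. HSPG2 lost its call without TGF-beta replicate 1, TGF-beta replicate 2 or vehicle replicate 1, with adjusted p from 0.0518 to 0.0799. LAMA5 lost its call upon omission of any single library (0.0622 to 0.121), and LAMB1 without TGF-beta replicate 1 (0.121), TGF-beta replicate 2 (0.138) or vehicle replicate 1 (0.095), and both lost it without centring, where 4 of the list rose and 1 fell.

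Enzymes that build, cross-link and cut the matrix follow. Of 15 genes of collagen processing and crosslinking 6 rose and none fell, with a median of 0.20. LOXL2, a lysyl oxidase that crosslinks collagen, had 18.2 and 16.1 kb in the TGF-beta libraries, against 9.98 and 10.7 kb in the vehicle libraries (log2 change 0.62, adjusted p = 0.00263). P4HA2, a prolyl hydroxylase subunit, rose by 0.77. Of 12 matrix proteases and inhibitors 7 rose and 1 fell, with a median of 0.36. MMP2, gelatinase A, had 2.21 and 3.08 kb in the TGF-beta libraries, against 0.160 and 0.256 kb in the vehicle libraries (log2 change 2.06, SE 0.145, adjusted p = 0.000266), with 5 gained and no constant regions. ADAM12, a membrane metalloprotease, had 14.4 and 14.9 kb in the TGF-beta libraries, against 4.19 and 4.81 kb in the vehicle libraries (log2 change 1.52). Both proteases had TGF-beta libraries clear of the vehicle libraries.

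Integrins and focal adhesion genes rose in 10 of 26 tested and none fell, though the median of the list was only 0.07. ITGA11, the alpha chain of a collagen-binding integrin, had 7.39 and 7.10 kb in the TGF-beta libraries, against 0.624 and 0.826 kb in the vehicle libraries (log2 change 2.58, SE 0.0864, adjusted p = 2.62e-05), with 11 gained regions. FERMT2, kindlin 2, which activates integrins, had 7.88 and 8.40 kb in the TGF-beta libraries, against 3.82 and 3.72 kb in the vehicle libraries (log2 change 0.93, adjusted p = 0.000603). The groups were separate for both. FERMT2 did not pass around its start site alone (0.07, adjusted p = 0.645).

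The actin and contractile list was divided, with 9 of 28 higher and 6 lower and a median of 0.02. TAGLN, transgelin, had 7.4 and 7.41 kb in the TGF-beta libraries, against 2.66 and 3.10 kb in the vehicle libraries (log2 change 1.14, adjusted p = 0.000261). CNN1 had 5.64 and 6.07 kb in the TGF-beta libraries, against 2.75 and 2.81 kb in the vehicle libraries (log2 change 0.87). ACTA2, smooth muscle actin and the usual marker of myofibroblasts, had 3.39 and 3.10 kb in the TGF-beta libraries, against 4.83 and 5.27 kb in the vehicle libraries (log2 change -0.65, adjusted p = 0.00161). So TAGLN and CNN1 rose while ACTA2 fell. ACTA2 overlaps FAS in the annotation, and with 2.5 kb on each side its log2 change was -0.11 (adjusted p = 0.369). SORBS3, vinexin, fell with a log2 change of -0.74.

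Epithelial junction genes were divided evenly, with 5 of 22 higher, 5 lower and a median of 0.00016. CDH1, E-cadherin of the adherens junction, had 20.3 and 19.6 kb in the TGF-beta libraries, against 27.1 and 30.1 kb in the vehicle libraries (log2 change -0.60, SE 0.0753, adjusted p = 0.00215). PKP1, a desmosomal plaque protein, had 11 and 11.8 kb in the TGF-beta libraries, against 3.02 and 2.83 kb in the vehicle libraries (log2 change 1.71, adjusted p = 0.000113). CLDN2, a pore-forming claudin, had 0.140 and 0.184 kb in the TGF-beta libraries, against 1.02 and 0.663 kb in the vehicle libraries (log2 change -1.09). CLDN2 passed the 500 bp filter only through the vehicle libraries, and with either of them left out it was not tested. TJP3, a tight junction scaffold, fell (-0.69). The 5 that rose were the desmosomal genes PKP1, DSG2 (1.05) and JUP (0.45) and the tight junction genes TJP1 (0.40) and CLDN1 (0.34). Tight junction genes thus changed in both directions. DSG2, JUP, TJP1 and CLDN1 did not pass around their start sites alone (adjusted p from 0.182 to 0.759), where JUP (-0.07) and TJP1 (-0.21) turned, and leaving out TGF-beta replicate 2 ended the calls of TJP1 (0.0657) and CLDN1 (0.0838). CLDN1 also failed without TGF-beta replicate 1 (0.0881) or vehicle replicate 2 (0.0587). Of 16 genes of polarity and epithelial splicing 2 rose and 5 fell, with a median of -0.12, and without centring 2 rose and 2 fell. ST14, the protease matriptase, rose (1.13), while its partner PRSS8, prostasin, fell (-0.58).

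Among transcription factors of epithelial-mesenchymal transition 3 of 15 rose and 2 fell, and without centring 5 rose and 1 fell. SNAI1, a repressor of E-cadherin, had 1.11 and 1.45 kb in the TGF-beta libraries, against 0.361 and 0.309 kb in the vehicle libraries (log2 change 1.00, SE 0.119, adjusted p = 0.00169), and the groups did not overlap. HMGA2, a chromatin factor that acts upstream of SNAI1, rose (0.41, adjusted p = 0.011), but not without TGF-beta replicate 1 (0.0639) or 2 (0.0652). TWIST1 fell (-0.33, adjusted p = 0.0351), but not upon omission of any single library (adjusted p from 0.0502 to 0.196) or without centring (0.126). Of 10 mesenchymal cell markers 6 rose and 1 fell, with a median of 0.32. FAP, fibroblast activation protein, had 5.42 and 5.75 kb in the TGF-beta libraries, against 1.49 and 1.58 kb in the vehicle libraries (log2 change 1.49, adjusted p = 0.000106). CDH11, a mesenchymal cadherin, rose (1.16). VIM, vimentin, had 4.52 and 4.89 kb in the TGF-beta libraries, against 3.44 and 3.47 kb in the vehicle libraries (log2 change 0.31, adjusted p = 0.0351), and lost its call upon omission of any single library, with adjusted p from 0.0651 to 0.195.

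Epithelial transcription factors split by gene, with 2 of 13 higher and 3 lower. TP63, the factor of basal epithelium, had 4.38 and 4.42 kb in the TGF-beta libraries, against 1.24 and 1.08 kb in the vehicle libraries (log2 change 1.48, SE 0.0927, adjusted p = 0.000188). ELF3, an ETS factor of glandular epithelium, had 3.04 and 2.60 kb in the TGF-beta libraries, against 6.29 and 6.62 kb in the vehicle libraries (log2 change -1.15, adjusted p = 0.000293). SPDEF, an ETS factor that drives goblet cell fate, had 2.54 and 2.22 kb in the TGF-beta libraries, against 4.93 and 4.53 kb in the vehicle libraries (log2 change -0.95). TP63 was thus higher, and ELF3 and SPDEF lower, in both TGF-beta libraries. GRHL3 also passed as higher and EHF as lower, and 8 of the 13 did not pass.

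Of 9 biliary transcription factors tested 3 rose and none fell, with a median of -0.01. HNF4A, a hepatocyte regulator, had 4.08 and 3.35 kb in the TGF-beta libraries, against 1.52 and 2.0 kb in the vehicle libraries (log2 change 0.82, SE 0.116, adjusted p = 0.0033), and gained H3K27ac at its promoter window. SOX9, a factor of bile duct cells counted in the list of epithelial-mesenchymal transition factors, had 1.56 and 1.51 kb in the TGF-beta libraries, against 1.96 and 2.12 kb in the vehicle libraries (log2 change -0.41, adjusted p = 0.00799), and did not pass without TGF-beta replicate 1 (0.0511) or 2 (0.0565). HNF4A and SOX9 therefore differed in direction.

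In the cholangiocyte identity list 4 of 13 rose and 2 fell, with a median of -0.12. SCTR, the secretin receptor through which ducts secrete bicarbonate, had 8.98 and 9.61 kb in the TGF-beta libraries, against 1.77 and 2.13 kb in the vehicle libraries (log2 change 1.92, SE 0.0887, adjusted p = 7.72e-05). ITPR3, the calcium channel of the apical pole, had 27.8 and 27 kb in the TGF-beta libraries, against 13.5 and 16.2 kb in the vehicle libraries (log2 change 0.78), which did not pass around the start site alone (adjusted p = 0.459). PKHD1, fibrocystin of the cilium, had 0 and 0.242 kb in the TGF-beta libraries, against 0.757 and 1.00 kb in the vehicle libraries (log2 change -1.26, adjusted p = 0.00421). PKHD1 passed the 500 bp filter only through the vehicle libraries, and with either of them left out it was not tested. KRT7, a duct keratin, did not pass, and its 22 and 22.4 kb in the TGF-beta libraries overlapped the 22 and 23.3 kb in the vehicle libraries (adjusted p = 0.292; 0.0396 with 50 kb on each side). KRT19, the other duct keratin, had 6.38 and 5.07 kb in the TGF-beta libraries, against 7.73 and 8.04 kb in the vehicle libraries (log2 change -0.52, adjusted p = 0.0125), and did not pass without TGF-beta replicate 2 (0.0635).

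Mucins and mucin glycosylation genes fell in 6 of 13 and rose in 1, with a median of -0.33. Those that fell included MUC2, MUC5AC and MUC6, which are neighbours (MUC5AC not without TGF-beta replicate 2, adjusted p = 0.0551), and the sialyltransferases ST6GALNAC1 and ST6GAL1. ST6GAL1 had 1.84 and 1.12 kb in the TGF-beta libraries, against 2.60 and 2.83 kb in the vehicle libraries (log2 change -0.81, adjusted p = 0.0113). The promoter window of ST6GAL1 was classed as gained. Plasma proteins known from hepatocytes fell in 6 of 13 and rose in 3, with a median of -0.27. Those that fell included FGA, FGB and FGG, which are neighbours and so are not separate results. AGT, angiotensinogen, had 3.07 and 2.20 kb in the TGF-beta libraries, against 7.6 and 6.88 kb in the vehicle libraries (log2 change -1.40, adjusted p = 0.000824). F2 had 6.72 and 6.60 kb in the TGF-beta libraries, against 1.32 and 1.12 kb in the vehicle libraries (log2 change 1.97, adjusted p = 8.09e-05). So prothrombin rose where angiotensinogen, APOB and FGA, a fibrinogen chain, fell.

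Profibrogenic and angiogenic growth factors rose in 10 of 18 and fell in 2, with a median of 0.38. PDGFA, a mitogen of mesenchymal cells, had 2.67 and 2.55 kb in the TGF-beta libraries, against 0.777 and 0.977 kb in the vehicle libraries (log2 change 1.09, SE 0.0823, adjusted p = 0.00032). IGFBP3, which binds insulin-like growth factors, had 1.83 and 1.97 kb in the TGF-beta libraries, against 0 in both vehicle libraries (adjusted p = 3.75e-05). IGFBP7 had 8.81 and 8.30 kb in the TGF-beta libraries, against 3.07 and 3.35 kb in the vehicle libraries (log2 change 1.20). The groups were separate at the 3 genes, and FGF1, PDGFC and ANGPTL2 were among the others that passed as higher. GDF15, a stress cytokine of the TGF-beta family, fell (-0.73, adjusted p = 0.00145), as did ANGPT1 (-0.54, adjusted p = 0.0195), whose call was lost without TGF-beta replicate 2 (0.107) or vehicle replicate 1 (0.0715).

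Chemokines fell in 5 of 8 and rose in 1, with a median of -0.39, and without centring 2 of the 8 fell. CXCL1, which attracts neutrophils, had 1.37 and 1.35 kb in the TGF-beta libraries, against 2.58 and 2.57 kb in the vehicle libraries (log2 change -0.81, SE 0.0743, adjusted p = 0.000637). CXCL2, CXCL3 and CXCL6, its neighbours, and CXCL16 also fell. Without TGF-beta replicate 2 the calls of CXCL2 (adjusted p = 0.102), CXCL3 (0.134) and CXCL6 (0.154) were lost, and without vehicle replicate 2 those of CXCL2 (0.0554) and CXCL6 (0.146). CXCL3 also failed without TGF-beta replicate 1 (0.136) or vehicle replicate 1 (0.102), and CXCL6 with 100 bp added in place of 500 bp (0.0803). CCL20, which draws CCR6-bearing lymphocytes, had 7.59 and 8.16 kb in the TGF-beta libraries, against 4.51 and 4.76 kb in the vehicle libraries (log2 change 0.62), but did not pass with 2.5 kb on each side (adjusted p = 0.27). Among cytokines 3 of 16 rose and 2 fell, and without centring 6 rose and 1 fell. IL11, a fibrogenic member of the IL-6 family, had 7.42 and 7.46 kb in the TGF-beta libraries, against 3.73 and 3.34 kb in the vehicle libraries (log2 change 0.89, adjusted p = 0.00102), and IL15 rose by 1.14.

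NF-kappaB and TNF genes passed as higher in 2 of 19 and lower in 4, and without centring 2 were higher and 2 lower. TNFRSF1B, a TNF receptor, had 0.278 and 0.358 kb in the TGF-beta libraries, against 1.54 and 2.16 kb in the vehicle libraries (log2 change -1.60, adjusted p = 0.000336). TNFAIP2, a TNF-induced gene, had 7.44 and 6.11 kb in the TGF-beta libraries, against 14.5 and 16.6 kb in the vehicle libraries (log2 change -1.23). In the interferon response list 1 of 22 rose and 4 fell, and without centring 1 rose and 1 fell. IRF7, an interferon regulator, rose (0.66, adjusted p = 0.00263), but not with 2.5 kb on each side (adjusted p = 0.0893), and OAS2, a sensor of viral RNA, fell (-0.59, adjusted p = 0.00297).

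Other signalling lists held changes in both directions. EGF receptor ligands and receptors rose in 2 of 10 and fell in 4, and without centring 2 rose and 1 fell. NRG1, an ERBB ligand with 16 gained regions, had 17.1 and 17.9 kb in the TGF-beta libraries, against 8.77 and 10.8 kb in the vehicle libraries (log2 change 0.73, adjusted p = 0.00252), while its relative NRG2 fell, as shown by its promoter. In BMP signalling 4 of 13 rose and 2 fell. NOG, the BMP antagonist noggin, had 1.85 and 1.67 kb in the TGF-beta libraries, against 0.260 and 0.186 kb in the vehicle libraries (log2 change 1.56, adjusted p = 0.00018), and the ligand BMP4 fell (-0.55, adjusted p = 0.00234). In WNT signalling 5 of 18 rose and 3 fell: WNT5B (-1.20), WNT10A (-1.10) and RNF43 (-0.89), a brake on WNT receptors. In Notch signalling 2 of 9 rose and 3 fell. NOTCH2, the receptor tied to bile duct formation, rose by 1.15 (adjusted p = 0.000573), which was -0.01 around its start site alone. Among axon guidance genes 6 of 23 rose and 3 fell, with PLXND1, a plexin, at 2.54 and SEMA3A, a semaphorin, at -0.99.

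The remaining lists are read against the same 14.8% higher and 11.4% lower. AP-1 and immediate early genes rose in 3 of 20 and none fell, with FOSL2, a partner of JUN proteins, at 0.61 (adjusted p = 0.00178), which did not pass around its start site alone (adjusted p = 0.1). YAP target genes rose in 4 of 18 and none fell. Cell cycle genes rose in 3 of 25 and fell in 4 (4 and 2 without centring), with MCM5, a subunit of the replication helicase, at 0.71 (adjusted p = 0.00486) and CDKN1C, a cyclin-dependent kinase inhibitor, at -0.67 (adjusted p = 0.0109). Genes of the histone acetylation machinery rose in 1 of 24 and fell in 5 (1 and 3 without centring), among them the acetyltransferase KAT2B (-0.89, adjusted p = 0.000549) and the acetyl-lysine reader BRD3 (-0.50). Lipid and acetyl-CoA metabolism genes rose in 5 of 24 and fell in 4, with ACSS1, a mitochondrial acetyl-CoA synthetase, at -1.41 (adjusted p = 0.000218). Xenobiotic metabolism genes rose in 1 of 12 and fell in 3: CYP24A1, which breaks down vitamin D, rose (1.89, adjusted p = 0.000181), and ALDH3A1 fell (-0.96). Of 23 housekeeping genes none rose and 3 fell, and without centring 1 rose and none fell.

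**Figure D4:**
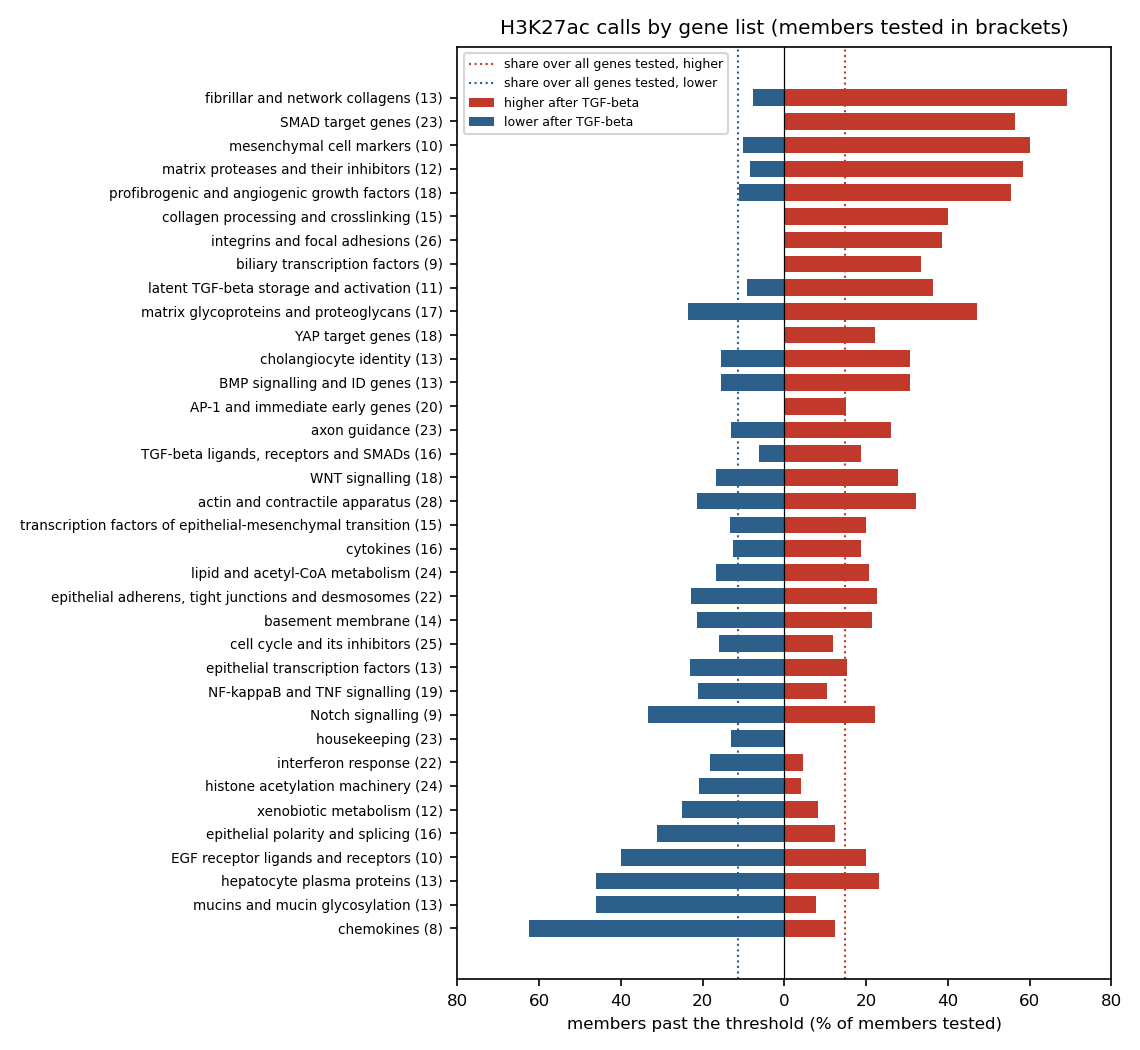
Members of each gene list past the threshold, in percent of the members tested, which are given in brackets: red to the right for higher and blue to the left for lower after TGF-beta, with dotted lines at the shares over all genes tested. Lists are ordered by the difference between the 2 shares: collagens, SMAD targets, mesenchymal markers and matrix proteases stand at the higher end and chemokines and mucins at the lower end. Marker lists of other cell types, endothelial ones among them, are not drawn.

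The labelled cell type was checked by its markers: KRT7, KRT19, KRT8 and KRT18 carried H3K27ac in all 4 libraries, as did SOX9. Other markers of the list had little: EPCAM had 0.14 and 0 kb in the TGF-beta libraries, against 0.208 and 0.645 kb in the vehicle libraries. AQP1 had 0.456 and 0.927 kb in the TGF-beta libraries, against 0 in both vehicle libraries. EPCAM and AQP1 were under the length filter and not tested. Of 12 cholangiocyte markers 1, CFTR, was at 0 in all 4 libraries, and the list summed to 92.4 and 92.0 kb in the TGF-beta libraries, against 86.0 and 91.4 kb in the vehicle libraries. The 10 stellate cell and fibroblast markers summed to 37.5 and 35.3 kb in the TGF-beta libraries, against 28.6 and 28.5 kb in the vehicle libraries, with DES, LRAT, DCN and COL3A1 at 0 in all 4. Of these, DPT and PDGFRB rose; PDGFRB (0.33, adjusted p = 0.024) did not pass upon omission of any single library, with adjusted p from 0.0573 to 0.141. The 10 endothelial markers summed to 36.9 and 37.0 kb in the TGF-beta libraries, against 29.8 and 30.5 kb in the vehicle libraries, with 3 of 5 tested higher and TIE1, CLDN5 and EMCN at 0 in all 4. None of the 3 passed without TGF-beta replicate 2 (adjusted p from 0.169 to 0.191) or without vehicle replicate 1 (0.0731 to 0.111). Without TGF-beta replicate 1 or vehicle replicate 2, 1 of the 3 passed. The 12 leukocyte markers summed to 29.6 and 30.6 kb in the TGF-beta libraries, against 22 and 24.4 kb in the vehicle libraries, with 2 of 8 higher, 1 lower and CD3D, CD2 and ITGAM at 0. The 11 hepatocyte markers summed to 8.67 and 7.86 kb in the TGF-beta libraries, against 4.01 and 5.46 kb in the vehicle libraries, with 2 of 4 higher, 1 lower and ALB, TTR, CYP2E1 and ARG1 among those at 0. A marker's window also holds the peaks of its neighbours. The sums, which are not centred, were higher with TGF-beta in every list, that of cholangiocytes included. Total length inside peaks was higher too, with means of 64.4 Mb with TGF-beta and 56.9 Mb with vehicle. In the leukocyte sum CSF1R alone held 8.63 and 9.05 kb in the TGF-beta libraries, against 0.675 and 0.411 kb in the vehicle libraries. Many mesenchymal and matrix genes above were higher, and the part of other cell types in those results was not tested.

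In windows of 100 kb along the genome, which need no gene, 2413 of 11681 (20.7%) gained and 2428 (20.8%) lost length, 41.4% in all. The even split rests on centring, without which 3241 windows were higher and 1135 lower, 74.1% higher. Leaving out TGF-beta replicate 1 or 2 left 1591 and 1516 lower windows. No protein-coding gene lay in 22.3% of the higher and 16.6% of the lower windows, against 9.84% of those that did not pass. Other kinds of gene were not looked at. The largest gain was a window without a protein-coding gene at chr20:58000001-58100000, with 5.89 and 5.94 kb in the TGF-beta libraries, against 0 in both vehicle libraries. It closed a run of 5 higher windows that began with ZBP1 and PMEPA1. Other large gains held MREG, FOSL2 with PLB1, KANK4 and TNS1. The largest losses held PPP1R16B, PHLPP1 (a phosphatase that acts on AKT), EXOC6B and 2 windows with no protein-coding gene, on chromosomes 18 and 5.

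Some changes ran over several neighbouring windows. From FN1 to MREG (chr2:215400001-216000000), 6 windows in a row were higher and summed to 44.4 and 47.6 kb in the TGF-beta libraries, against 9.37 and 12.7 kb in the vehicle libraries. A higher run on chromosome 6 (chr6:21800001-22400000) held PRL as its only protein-coding gene. Its 6 windows summed to 36.5 and 37.0 kb in the TGF-beta libraries, against 16.2 and 15 kb in the vehicle libraries. From SNTB1 onward, 6 windows in a row were lower and summed to 17.9 and 17.3 kb in the TGF-beta libraries, against 31.0 and 33.9 kb in the vehicle libraries. In each run the libraries of the treatments were separate, but the runs were made of windows that had passed, so this is no further support. A run of 6 lower windows on chromosome 20 held PTPN1, RIPOR3 and PARD6B, and another on chromosome 7 held AGR2 and its relative AGR3. The longest chain of higher genes, 23 in all, held the protocadherin gamma cluster on chromosome 5 and 1 neighbour, and the protocadherins share most of their span and so are not separate results.

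**Figure D5:**
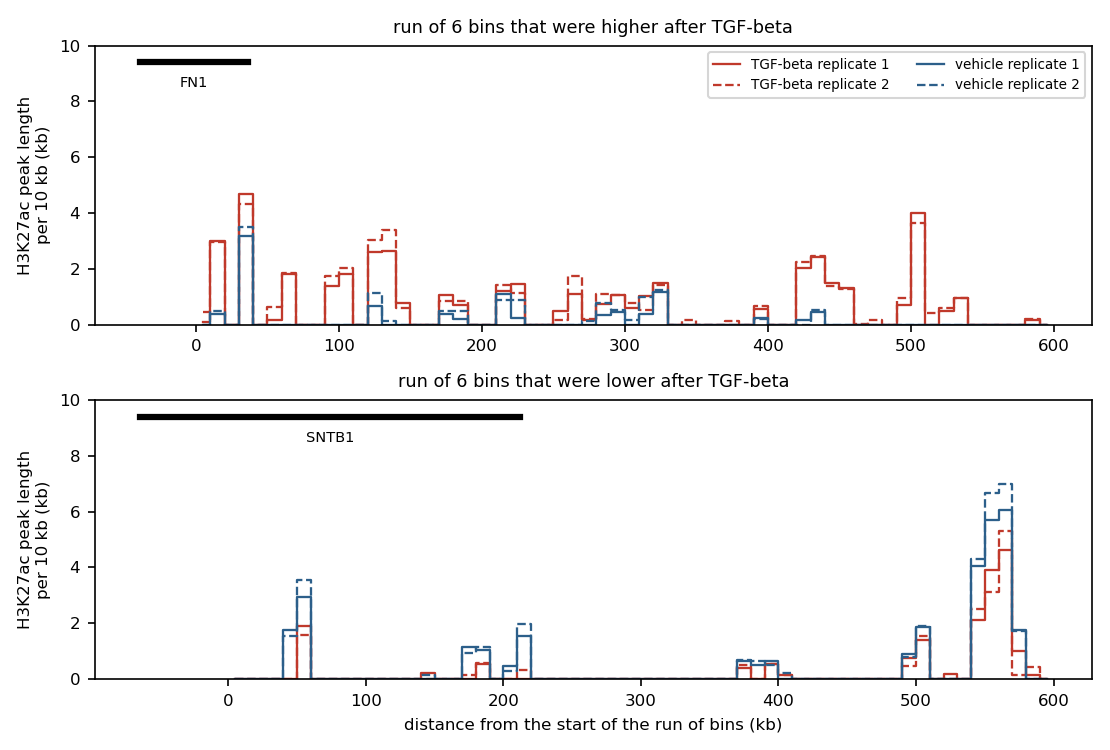
H3K27ac length (kb) per 10 kb along 2 runs of 6 windows, by distance from the start of the run (kb); red lines are the TGF-beta libraries and blue lines the vehicle libraries, solid for replicate 1 and dashed for replicate 2, and black bars show the gene. In the upper run the red lines rise at many separate places beyond FN1, and in the lower run, which starts in SNTB1, the blue lines stand above the red ones at most peaks.

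The change in H3K27ac was set against that in H3K9ac, an acetylation mark nearer to promoters, in 1 model of 8 libraries. It was more positive in H3K27ac at 838 of 14999 genes (5.59%) and more negative at 292 (1.95%), 7.53% in all. Without centring these were 1129 and 82. Without TGF-beta replicate 1 of H3K27ac they were 509 and 171, and without TGF-beta replicate 2 of H3K27ac 409 and 140. Of the 2074 genes higher in H3K27ac, 707 (34.1%) differed from H3K9ac in this direction, and of the 1596 lower genes 219 (13.7%) differed in theirs. These genes were chosen by their H3K27ac change, which is a part of the difference tested. Shares above those over all genes therefore follow from the choice and are no separate support. P4HA3 had H3K9ac lengths of 0.978 and 1.31 kb in the TGF-beta libraries, against 0.482 and 0.378 kb in the vehicle libraries, and a difference between marks of 2.30 on the log2 scale (SE 0.123, adjusted p = 0.000199). SGCE, a sarcoglycan of the membrane, had H3K27ac lengths of 1.65 and 1.71 kb in the TGF-beta libraries, against 5.66 and 7.10 kb in the vehicle libraries. Its H3K9ac lengths were 2.09 and 2.0 kb in the TGF-beta libraries, against 2.70 and 2.59 kb in the vehicle libraries, a difference between marks of -1.52. H3K9ac changed in the same direction as H3K27ac at both genes, over less length.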

How the data were processed

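ChIP-seq for H3K27ac was done on H69 chromatin crosslinked for 10 min in 1% formaldehyde and read as 51-base paired ends, per the labels' protocols. The submitters' processing notes name BWA, Picard, MACS2 and bedtools and the build hg38. Neither tool versions nor the peak cutoff and control are given in the sources here. Peaks were deposited by the authors in 1 file per library, with a score per peak that is the −log10 of a p or q value, without saying which. That score is the authors' and was used only within a library.

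From these files the length inside peaks was computed per gene (RefSeq, GRCh38.p14, 19974 protein-coding genes, span with 10 kb on each side), per 100 kb window and per region merged at an overlap of 1 bp. Lengths plus 500 bp were put on the log2 scale, in features with a mean of at least 500 bp, centred on the median of genes covered in all 4 libraries. A change on this scale understates that of short features. The effect of treatment was fitted with limma 3.58.1 (R 4.3.3; Benjamini-Hochberg, threshold 0.05), with 2 libraries against 2, and the difference between marks as a treatment by mark term. Other steps used Python 3.11.15, numpy 2.4.6, pandas 2.3.3, scipy 1.17.1 and matplotlib 3.10.9. The test was also run on simulated data with independent noise per gene, which lacks the peaks shared by overlapping windows. The outcome of that run is not given here and is no support for the results. Exon and intron are not given, because no transcript annotation was used. The 40 gene lists held 771 entries, 770 of them matched.

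Named were the 15 loci with the largest change in each direction, up to 3 members per list and direction, 5 windows and 5 genes by difference between marks in each direction, the 8 genes with the most gained and lost regions, and 12 genes fixed by name; gene names in the promoter results and further list members are outside this rule and were chosen after their values were seen. The members, lists and rules were chosen with earlier results of these data known. A window around the start site was added after seeing the data. Some genes that these rules name are not reported here, and each list's counts and sums still include them.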

Additional observations from a re-analysis of the deposited data

Results flagged for a closer look

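Each gene here was singled out because its change after TGF-beta differed between H3K27ac and H3K9ac, tested as a treatment by mark term in limma; the values are H3K27ac minus H3K9ac on the log2 scale. The difference was more positive in H3K27ac at SHISAL2A (3.01), HAPLN3 (2.39), CREG2 (2.33), P4HA3 (2.30) and GUCA1B (2.21), an activator of retinal guanylate cyclase. GUCA1B had 3.05 and 3.29 kb of H3K27ac in the TGF-beta libraries, against 0.539 and 0.429 kb in the vehicle libraries. Its H3K9ac was listed at 0 in both TGF-beta libraries, against 0.210 and 0.188 kb in the vehicle libraries. The difference was more negative at ST6GALNAC1 (-2.66), FGA (-1.64), GUCY1A2 (-1.61), a subunit of the nitric oxide receptor, SGCE (-1.52) and CHODL (-1.51). ST6GALNAC1, FGA and CHODL were listed at 0 in all 4 H3K9ac libraries, so their differences come from H3K27ac and from the centring of the H3K9ac libraries. At ST6GALNAC1 the log2 change of H3K27ac alone was -2.57.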

How the results depend on the processing

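Counts of genes depended on the window and on centring. With 50 kb on each side, 3005 genes were lower; around the start site alone, an alternative added after seeing the data, 833 were higher and 567 lower of 10242 tested; without centring 880 were lower. Leaving out 1 library gave 1242 to 1880 higher and 738 to 1330 lower genes. For 100 kb windows, 3241 were higher and 1135 lower without centring, and leaving out 1 library gave 1684 to 2368 higher and 1516 to 1855 lower. For the difference between marks, the counts were 592 more negative with 50 kb, 310 more positive and 124 more negative around the start site, and 82 more negative without centring; leaving out 1 library gave 409 to 766 more positive and 140 to 249 more negative. Merging regions within 1 kb gave 4647 gained and 1613 lost, and leaving out 1 library 14849 to 24445 gained and 6426 to 14207 lost.

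The same replicate number did not pair the libraries (r = -0.0163 across the genes tested between deviations of same-numbered libraries). With the replicate block 2085 genes were higher and 1600 lower, 2332 windows were higher and 2128 lower, and with the replicate block within mark 192 genes were more negative.

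Of 122 named higher genes 68 kept their call under each alternative that gave a value, and of 98 named lower genes 54. With 50 kb on each side the log2 change turned in MFAP2 (-0.062), HAS3 (0.055), MMP15 (0.010), THY1 (-0.31, adjusted p = 0.018) and CLDN10 (0.10), and the difference between marks of FGA became 0.060. Around the start site it turned in LTBP1 (-0.030), HAS3 (0.025), VCAN (0.093), LAMB1 (0.052), JUP (-0.070), PRKCI (-0.15), ERBB2 (0.49, adjusted p = 0.00798), NOTCH2 (-0.012), LATS2 (-0.11), CDK6 (-0.049), PPARG (-0.11) and TNS3 (-0.019). The cause was not tested. With no read counts, depth sets no interval here, and 2 libraries per treatment limit the precision.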
